A study of Mus musculus with 4 samples.

Results

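The 2 neuropilins (Nrp1 and Nrp2), the 4 class A plexins (Plxna1 to Plxna4), the class D plexin Plxnd1 and the adaptor gene Gipc1 were followed in lung group 2 innate lymphoid cells (ILC2s) with and without deletion of Nrp1. The genes were chosen by symbol, as the deleted gene, its paralogue, their plexin co-receptors and an adaptor of the neuropilin tail, and all 8 were found among the 38697 genes of the authors' deposited table. ILC2s are tissue lymphocytes that make type 2 cytokines and amphiregulin. Bulk RNA was profiled from cells sorted from lungs of C57BL/6 mice given bleomycin, which injures the lung. The 4 samples were 2 pools of R5/+ mice, called wild type (WT), and 2 pools of R5/+Nrp1f/f mice, called knockout (KO), with several mice in each pool. Both genotypes thus carried 1 R5 allele and both received bleomycin, and the label of the KO adds floxed Nrp1 alleles. R5 is known as a knock-in at Il5 that carries a fluorescent reporter and Cre recombinase, so recombination is tied to cells that have expressed Il5. No untreated mice are among the samples used here, and the labels used here name no age, sex or floxed exon.

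Neuropilins are single-pass receptors with short cytoplasmic tails. They bind class 3 semaphorins and VEGF family ligands at the cell surface, and pass semaphorin signals on through plexins, whose cytoplasmic part acts on small GTPases of the Rap and Ras families and reshapes the actin cytoskeleton. Class A plexins act with neuropilins as receptors for most class 3 semaphorins, while plexin D1 can bind Sema3e without a neuropilin. Gipc1, also called synectin, is a PDZ-domain protein that binds the neuropilin-1 tail and links it to myosin VI and endocytosis. In the immune system Nrp1 is best known as a surface marker of thymus-derived regulatory T cells and plasmacytoid dendritic cells, and in the vessel wall as a co-receptor of VEGF receptor 2.

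The authors compared the genotypes themselves, and their result lists for each gene the mean normalized count over the libraries (baseMean), the log2 fold change and its SE (standard error), and an adjusted p-value. Values per library could not be tied to samples and are not shown, so each result below carries the authors' SE. The labels give 2 pools per genotype, and which libraries entered the SE could not be checked. Positive log2 values mean higher in KO. That direction follows from the name of the table, which puts WT first, and with the opposite reading every direction, that of Nrp1 included, would turn. Levels are compared between genes as baseMean per kilobase of exon, computed here with exonic lengths from GENCODE M21 (mm10). A bare baseMean stands only for how many reads lie behind a value. Values given for WT or KO separately follow the same reading of the direction and would change places with the opposite one. Because the RNA is from a bulk of sorted cells, fewer cells expressing a gene and less RNA per cell cannot be told apart.

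Nrp1 was by far the most abundant receptor of the group. Computed from baseMean in the authors' deposited table, its level over all libraries was 385.4 normalized counts per kilobase of exon, above 91.5% of all tested genes on the same scale. Gipc1, the adaptor, came next at 216.9 per kilobase, above 85.9% of tested genes. Plxna1 was the most abundant of the 5 plexins at 36.6 per kilobase, and Plxnd1 followed at 14.0 per kilobase. The remaining genes were low: Nrp2 stood at 8.35, Plxna3 at 8.09, Plxna2 at 5.86 and Plxna4 at 2.81 normalized counts per kilobase. Plxna4 was thus above only 8.61% of tested genes by this measure. Nrp1 exceeded its paralogue Nrp2 by 46.1 times, Plxna1 by 10.5 times and Plxna4 by 137.2 times per kilobase. The size of these ratios depends on the length used for each gene. No spread between samples is available for these levels, so neighbours as close as Nrp2 and Plxna3 cannot be ordered with confidence. Among plexins of all classes, Plxna1 was second of 9 per kilobase, between Plxnb2 at 45.0 and Plxnc1 at 34.0, which bind membrane-anchored semaphorins without a neuropilin.

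**Figure D1:**
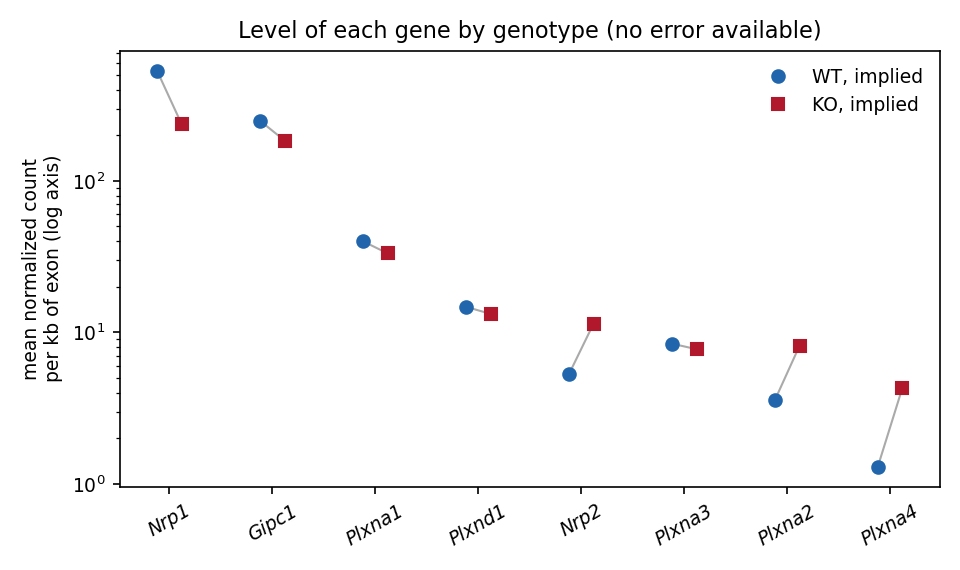
Mean normalized count per kilobase of exon (log axis) for each of the 8 genes, in order of level, with the WT value (circle) and KO value (square) implied by baseMean and the fold change; no error is available for these means. Nrp1 goes from 534.4 in WT to 236.3 in KO and stays above Gipc1 in both, while the other neuropilin and the plexins all lie under 40 per kilobase.

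Of the 8 genes, Nrp1 was the only one that passed the authors' test, and it was lower in KO. At an unadjusted p under 0.05 there were 2 of the 8, Nrp1 (lower) and Plxna2 (higher), and 3.95% of all tested genes were lower and 9.62% higher by that rule. The log2 fold change of Nrp1 was -1.18 ± 0.21 (SE, with 2 pools per genotype by the labels) in the authors' deposited table, and its adjusted p was 1.27e-04. On the linear scale the KO level was 44.2% of that in WT, with a 95% normal interval of 33.1% to 59.1%. The authors' deposited table lists Nrp1 with a baseMean of 3771, from which the implied means were 5229 normalized counts in WT and 2313 in KO. Per kilobase the implied KO mean of Nrp1, 236.3, was still higher than that of any other gene of the group. The gene (ENSMUSG00000025810) lies on the plus strand of mouse chromosome 8 at 128358604 to 128503363 (mm10), and its exons include those of 1 annotated protein-coding transcript among 4 transcripts. Reads from a floxed exon and reads from the rest of the gene are summed in this value, so it does not measure how much of the allele was recombined.

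The background of such calls was low. Across 19193 tested genes, 0.099% were lower and 0.453% were higher in KO at an adjusted p under 0.05 (19 and 87 genes), and the deleted gene had the smallest p of all genes that were lower. Nrp1 also had the lowest log2 value among the 2480 tested genes with a baseMean of at least 1000, whose median log2 was -0.25. When fold changes were centred on that median, the calls became 225 higher (1.17%) and 2 lower (0.0104%), and Nrp1 stood at -0.93 with an adjusted p of 0.00994. Centring adds 0.25 to every log2 value.

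Nrp2, the paralogue of Nrp1 and the preferred co-receptor of Sema3f and of VEGF-C, did not pass. Its log2 value was 1.11 ± 0.64 (adjusted p-value = 0.443) in the authors' deposited table, where its baseMean was 98.9. The 95% interval ran from -0.14 to 2.36, which spans a slight fall and a rise of 5.14 times. This interval does not overlap that of Nrp1 (-1.59 to -0.76), although the difference between the genes was not tested. In implied means per kilobase Nrp2 was 5.29 in WT and 11.4 in KO. The summed neuropilin level was 539.7 per kilobase in WT and 247.8 in KO, of which Nrp2 made up 0.979% and 4.61%. Nrp1 was thus 95.4% of neuropilin mRNA per kilobase in KO and 99.0% in WT, and with the opposite reading of the direction these shares change places. Nrp2 (ENSMUSG00000025969) lies on chromosome 1 at 62703285 to 62818695 (mm10).

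Among the class A plexins, the signalling partners of neuropilins, none passed the test. Plxna1, the most abundant and a receptor for Sema3a and Sema6d, stood at -0.27 ± 0.32 (adjusted p-value = 0.771) in the authors' deposited table. Its 95% interval of -0.90 to 0.37 holds a fall to 53.5% of WT and a rise to 129.3%. Plxna3, which acts mainly with Nrp2 in Sema3f signalling, stood at -0.12 ± 0.65 (adjusted p-value = 0.961) in the authors' deposited table, with a baseMean of 63.7.

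Plxna2 and Plxna4, both also receptors for class 6 semaphorins, had positive values. Plxna2 was at 1.19 ± 0.57 in the authors' deposited table, with p = 0.0360 before adjustment and 0.322 after it. For Plxna4, the least abundant of the group with a baseMean of 39.6, the value was 1.74 ± 0.95 (adjusted p-value = 0.415) in the authors' deposited table. Positive values were common at low counts, and both genes are read against that. Of all tested genes with a baseMean under 50, 85.2% were positive with a median of 1.41, and 57.1% of them lay below Plxna4. Of tested genes with a baseMean from 50 to 200, 57.2% were positive with a median of 0.088, and 94.0% lay below Plxna2 and 93.0% below Nrp2. These abundance classes were chosen after the values had been seen and the positions are descriptions without a test.

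Summed over the 4 genes, the implied class A plexin level was 53.2 per kilobase in WT and 53.4 in KO. Plxna1 made up 75.0% of this sum in WT and 62.2% in KO, and Plxna2 made up 6.69% and 15.3%. These shares follow from fold changes that did not pass, have no error of their own and would change places between the genotypes with the opposite reading of the direction.

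Plxnd1, the receptor for Sema3e that is best known in endothelial cells and thymocytes, was at -0.16 ± 0.51 (adjusted p-value = 0.930) in the authors' deposited table, at a baseMean of 102.2. Its 95% interval of -1.16 to 0.85 spans 44.8% to 179.7% of WT. Gipc1, the tail adaptor, had a value of -0.44 ± 0.36 (adjusted p-value = 0.635) in the authors' deposited table, where its baseMean was 375.0. The interval of Gipc1 was -1.15 to 0.28, or 45.1% to 121.1% of WT. Centred on abundant genes, Gipc1 stood at -0.18, while the values of Plxnd1 (0.095) and Plxna3 (0.13) turned sign.

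**Figure D2:**
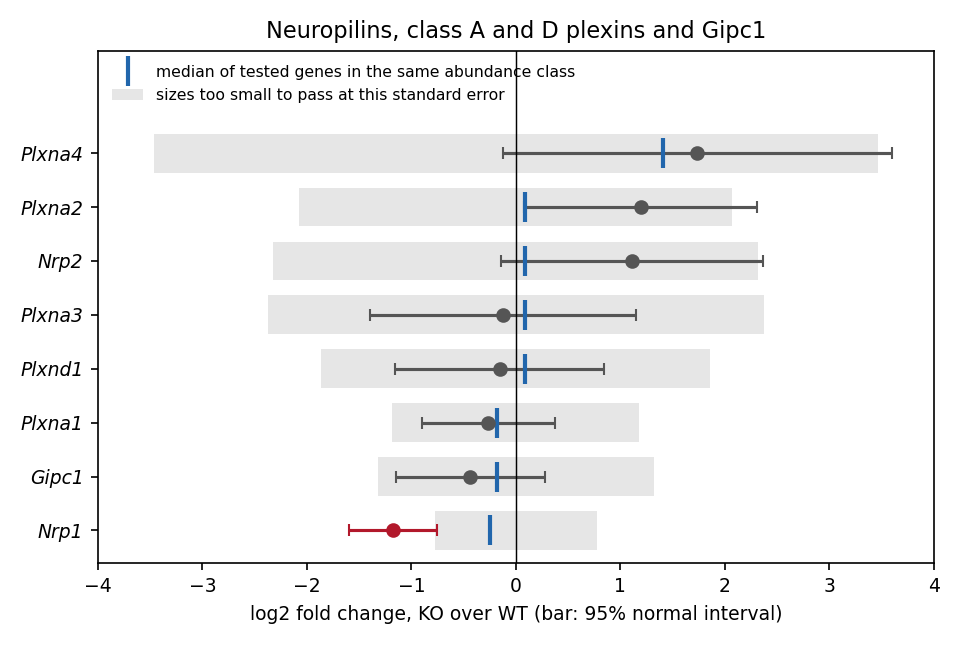
Log2 fold change, KO over WT, of each gene (point) with its 95% normal interval (line), red where the adjusted p was under 0.05; grey bars span sizes too small to pass at that gene's SE and blue ticks give the median of tested genes in the same abundance class. Nrp1 at -1.18 lies outside its grey bar, and the other 7 points lie inside theirs.

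The SEs set what could have been called. The smallest absolute test statistic among called genes was 3.64, and a gene with the SE of Nrp1 would have passed from an estimated change of about 1.71 times. The same bar was 2.27 times for Plxna1, 2.50 times for Gipc1 and 3.63 times for Plxnd1. For the scarcer genes it was higher still, at 4.2 times for Plxna2, 5.0 times for Nrp2, 5.17 times for Plxna3 and 11.0 times for Plxna4. Estimated changes below these sizes would not have passed in this comparison, so the 7 results that missed the threshold do not show equal expression. The 95% interval held 0 for 6 of the 7, the exception being Plxna2 at 0.078 to 2.31. The SE of Nrp1, 0.21, was close to the median of 0.19 for its abundance class, and those of Nrp2 (0.64) and Plxna2 (0.57) were close to the median of 0.55 for theirs.

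**Figure D3:**
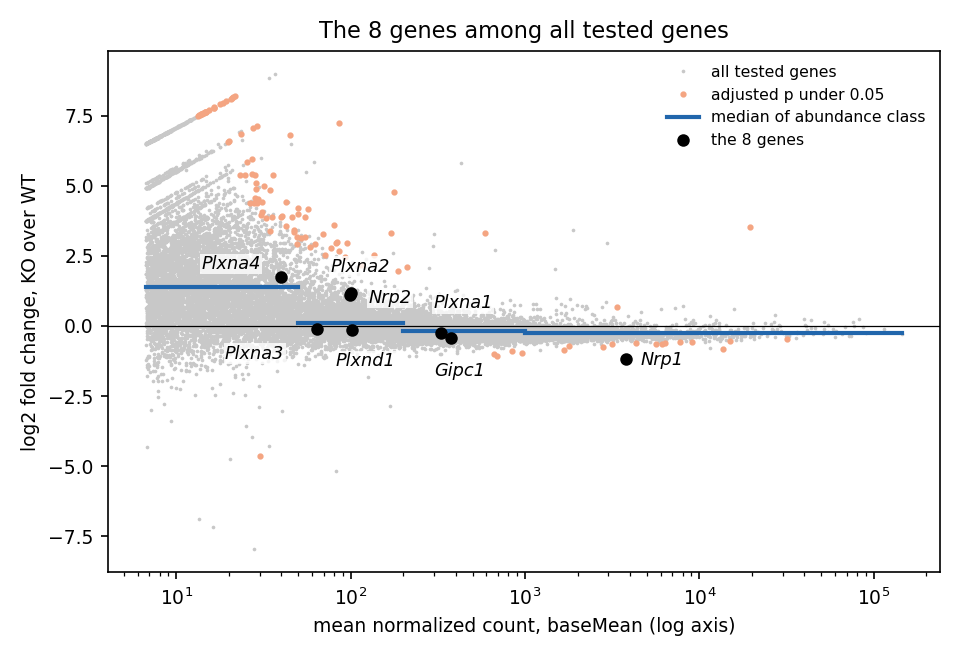
Log2 fold change, KO over WT, against baseMean (log axis) for all tested genes (grey), genes with an adjusted p under 0.05 (orange), the median of each of 4 abundance classes (blue) and the 8 genes (black). Nrp1 sits below the other abundant genes, and Plxna4, Nrp2 and Plxna2 lie at low baseMean, where positive values spread widely.

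Counting between relatives can blur such families, so the annotated transcripts were compared. Of all stretches of 31 bases in the transcripts of each gene, under 1% also occurred in a transcript of another gene for 6 of the 8 genes. The other two were Plxna1 with 8.57% and Plxna2 with 2.76%. Between members of the group at most 8 such stretches were shared, so paralogues were almost fully separable at this length. For Plxna1 nearly all shared stretches belonged to Gm26811, an antisense gene that overlaps 10.7% of the exonic length of Plxna1. The kits are not described as marking strand, so reads of Plxna1 and Gm26811 in that overlap cannot be told apart. Gm26811 itself was at 0.57 ± 1.12 (adjusted p-value = 0.870) in the authors' deposited table, with a baseMean of 19.2.

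Partner genes of the system were taken from 7 lists of ligands, other receptors and signalling proteins. Of 70 partner genes 69 were tested, and 2 of them (2.90%) passed as higher and 0 as lower, against 0.453% and 0.099% of all tested genes. At an unadjusted p under 0.05, 6 partners were higher and 4 lower, where 9.62% and 3.95% of all tested genes were. By list, such a p was reached by 0 class 3 semaphorins, 1 transmembrane semaphorin, 1 class B or C plexin, 1 gene of the VEGF branch, 5 other surface partners, 0 signalling genes and 2 of the GIPC list. The median log2 of the partners was 0.23, beside 0.076 for all tested genes.

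Among the ligands, all 7 class 3 semaphorins had positive log2 values, from 0.53 to 1.52 with a median of 0.65, and none passed. Their baseMean ran from 36.0 to 320.5 with a median of 48.8. Of all tested genes under a baseMean of 50, 85.2% were positive with a median of 1.41. The positive share was 57.2% from 50 to 200 and 22.6% from 200 to 1000. Sema3c, the most abundant of the list per kilobase, had a baseMean of 320.5 and stood at 0.53 ± 0.40 (adjusted p-value = 0.588) in the authors' deposited table. Sema3e, the plexin D1 ligand, stood at 0.65 ± 0.61 (adjusted p-value = 0.687), and Sema3a, the classical Nrp1 ligand, at 1.47 ± 0.79 (0.406) in the authors' deposited table. Sema3d had the highest value of the list, 1.52 ± 0.80 (adjusted p-value = 0.386), in the authors' deposited table, where its baseMean was 48.8.

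Among 8 transmembrane semaphorins that bind class A or D plexins directly, Sema4a and Sema6d were far more abundant than any class 3 semaphorin. Computed from baseMean, Sema4a reached 1130 and Sema6d 416.3 normalized counts per kilobase, against 44.9 for Sema3c. The others of this list lay below Sema3c, from 21.3 for Sema4c down to 1.53 for Sema5b. None of the 8 genes in this list passed, and their median was 0.049. Sema4a, a ligand of plexin D1 and of other plexins, stood at -0.45 ± 0.17 (adjusted p-value = 0.169), and Sema6d, the Plxna1 ligand, at -0.16 ± 0.23 (0.820) in the authors' deposited table. Sema5a was at -0.13 ± 0.35, Sema6a at 0.90 ± 0.56 and Sema5b at 1.59 ± 1.62, in the authors' deposited table, where their adjusted p-values were 0.909, 0.482 and 0.714.

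The VEGF branch also held no gene past the test among its 8, with a median of 0.42. Vegfa, the main VEGF ligand that binds Nrp1, had a baseMean of 985.1 and a log2 value of 0.11 ± 0.27 (adjusted p-value = 0.90) in the authors' deposited table. Its receptors Kdr (VEGF receptor 2) and Flt1 (VEGF receptor 1) stood at 0.53 ± 0.87 (adjusted p-value = 0.843) and 0.81 ± 0.46 (0.444) in the authors' deposited table. Pgf, which encodes placental growth factor, was at 2.03 ± 0.93 in the authors' deposited table, with a baseMean of 38.2 and an adjusted p-value of 0.292.

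The class B and C plexins, which can bind semaphorins without neuropilins, held 0 of 4 past the test. Plxnb2 and Plxnc1, at levels like that of Plxna1, stood at -0.20 ± 0.30 (adjusted p-value = 0.821) and 0.064 ± 0.37 (0.963) in the authors' deposited table. Plxnb1 was at 2.57 ± 0.96 (adjusted p-value = 0.169) and Plxnb3 at 0.87 ± 1.01 (0.759), both with a baseMean under 60 in the authors' deposited table.

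Of 12 other surface partners, 1 was higher and the list median was 0.66. Chl1, an L1-family adhesion molecule that binds Nrp1 in neurons, rose by 4.08 ± 1.07 on the log2 scale (adjusted p-value = 0.0383) in the authors' deposited table, where its baseMean was 30.9. The implied WT mean of Chl1 was 3.45 normalized counts and the KO mean 58.3, so the fold is a fitted value from very few reads. Its relative L1cam, which also pairs with Nrp1 in Sema3a reception, was at -0.98 ± 0.29 (adjusted p-value = 0.0753) in the authors' deposited table and passed as lower only at an adjusted p under 0.1. Nrcam, the partner of Nrp2, stood at 1.28 ± 0.53 (adjusted p-value = 0.230), and the abundant TGF-beta receptor chain Tgfbr2 at -0.34 ± 0.17 (0.345) in the authors' deposited table. Itgb1, the integrin beta 1 chain, was at 0.091 ± 0.20 (adjusted p-value = 0.889) and Igf1r at 0.54 ± 0.30 (0.418) in the authors' deposited table.

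Downstream of the plexins, 24 signalling and cytoskeletal genes held 0 past the test, with a median log2 of -0.00071. Rap1b, a GTPase on which plexins act, had a baseMean of 5586 and stood at -0.15 ± 0.17 (adjusted p-value = 0.746) in the authors' deposited table. Dpysl2, which encodes the semaphorin mediator CRMP2, was at -0.24 ± 0.19 (adjusted p-value = 0.610), and the actin-severing factor Cfl1 at -0.30 ± 0.16 (0.377) in the authors' deposited table. Sh3bp1, a Rac GTPase-activating protein that acts with plexin D1, stood at -0.39 ± 0.24 (adjusted p-value = 0.468) in the authors' deposited table. Dpysl4 was at 2.35 ± 1.61 (adjusted p-value = 0.540) in the authors' deposited table, with a baseMean of 11.3.

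The GIPC list held 1 of 6 tested genes past the threshold. Lrp2, the endocytic receptor megalin, rose by 2.69 ± 0.71 on the log2 scale (adjusted p-value = 0.0401) in the authors' deposited table. The means of Lrp2 implied by baseMean and the fold change were 22.9 in WT and 147.7 in KO. Synj2 was at -0.58 ± 0.19 (adjusted p-value = 0.118), Rgs19 at -0.31 ± 0.25 (0.618) and the endosomal adaptor Appl1 at -0.25 ± 0.17 (0.547) in the authors' deposited table. Gipc3, a paralogue of Gipc1, had no adjusted p. Neither Chl1 nor Lrp2 passed when p-values were adjusted over all genes without the authors' filter, at adjusted p of 0.0773 and 0.0809.

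**Figure D4:**
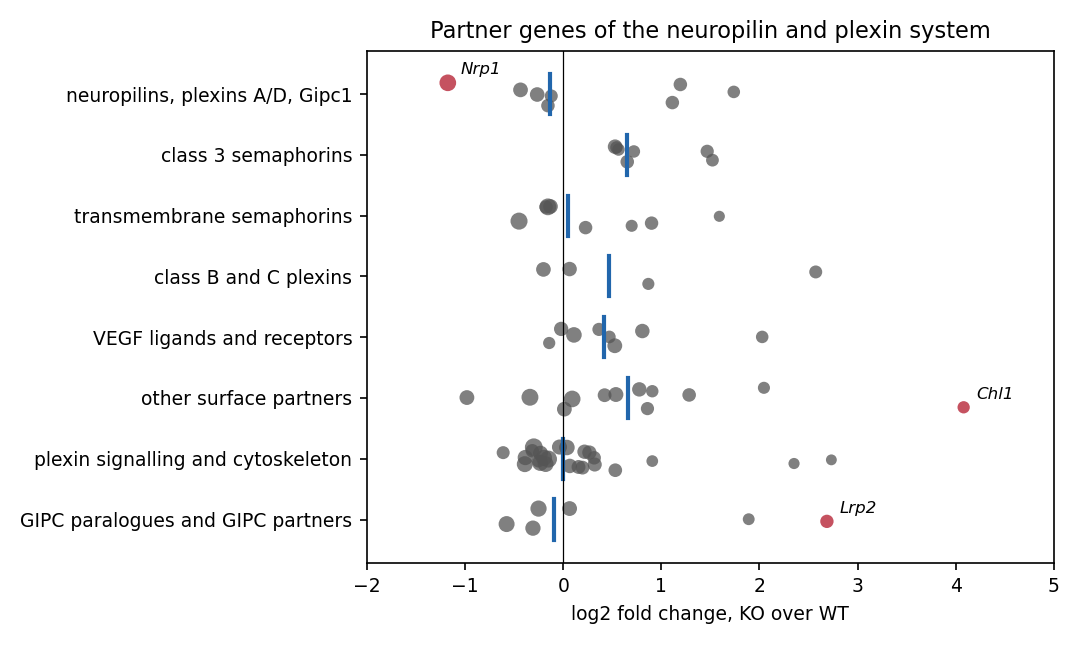
Log2 fold change, KO over WT, of each tested gene in the group and in 7 partner lists; point size grows with log10 baseMean, red marks an adjusted p under 0.05, blue lines are list medians and points are spread vertically only to separate them. Nrp1 is the red point to the left of 0, and Chl1 and Lrp2 are the red points to the right.

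ILC2 markers had a median baseMean of 12090 and ran down to 187.3 for Il13, and RNA of other lung cells was also present. All 15 ILC2 markers were tested, none passed, and all 15 had negative log2 values with a median of -0.33. Negative values were the rule at high counts, since only 7.1% of tested genes with a baseMean of at least 1000 were positive. Il13 and Thy1 (baseMean 983.9) lay below that count. An unadjusted p under 0.05 was reached by 7 of the 15, all lower, against 13.6% of all tested genes in either direction and 3.95% lower. No such share is given here for genes as abundant as these. Centred on abundant genes, the list median was -0.080. Id2 and Rora, regulators of ILC development, had the highest baseMean values of the list, 43668 and 41644 in the authors' deposited table. Per kilobase of exon Id2 stayed first, while Areg, Gata3, Icos and Il5 lay above Rora. On that scale Lyz2 of the macrophage list (6825) and Sftpc of the epithelial list (5833) lay between Gata3 (9842) and Icos (4841).

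Endothelial genes matter here because endothelium is known to express Nrp1, Nrp2 and Plxnd1. All 12 endothelial markers were tested, 0 passed and 2 reached an unadjusted p under 0.05. Of the 12, 11 were positive with a median of 0.39, where 54.0% of all tested genes were positive. That share fell with abundance: 85.2% under a baseMean of 50, 57.2% from 50 to 200, 22.6% from 200 to 1000 and 7.1% from 1000 up. The baseMean of these 12 markers ran from 118.2 to 2844. Their summed implied level was 6614 normalized counts in WT and 8211 in KO. Calcrl, which ILC2s are also known to express as a chain of the CGRP receptor, made up 38.4% of the summed baseMean of this list, and without it the sums were 3979 and 5158. Pecam1, an adhesion molecule found on some leukocytes too, had the next highest baseMean at 1275 in the authors' deposited table.

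Of 60 tested markers in the 6 lists of other cells, endothelium included, 0 passed as higher and 1 as lower. Fibroblast markers summed to 5322 in WT and 9161 in KO, lung epithelial markers to 8961 and 15202, and macrophage and dendritic markers to 9703 and 10933. The most abundant fibroblast marker, Col3a1, had a wide SE, at 0.70 ± 1.22 (adjusted p-value = 0.849) in the authors' deposited table. So did the most abundant epithelial marker, Sftpc, at 0.60 ± 1.44 (adjusted p-value = 0.897) in the authors' deposited table. The median SE of tested genes with a baseMean of at least 1000 was 0.19. B and plasma cell markers summed to 5268 in WT and 5590 in KO, and 6 of the 8 tested were positive. Ighm made up 44.6% of the summed baseMean of that list and stood at -0.51 ± 0.18 (adjusted p-value = 0.141) in the authors' deposited table. Without Ighm the sums were 2425 in WT and 3591 in KO. T cell markers summed to 7713 in WT and 5597 in KO, and 3 of the 9 tested were positive. Trbc1, Trbc2 and Cd3g carried most of this sum, with baseMean values of 2938, 2525 and 962.9. Which cells the reads of these genes came from was not tested. The median baseMean of the 9 tested was 51.8. Without Trbc1, which made up 44.2% of the summed baseMean, the sums were 4312 and 3122. The 1 call was Cd3g, a T cell receptor complex chain, at -0.96 ± 0.24 (adjusted p-value = 0.0292) in the authors' deposited table. Trbc1, the gene with the highest baseMean in the T cell list, stood at -0.46 ± 0.18 (adjusted p-value = 0.192), and Trbc2 at -0.34 ± 0.18 (0.401), in the authors' deposited table. No marker of any list was at 0. These sums have no error, and a few genes carry them, Sftpc making up 49.9% of the epithelial and Lyz2 87.0% of the macrophage and dendritic baseMean. The sum was higher in KO for 5 of the 6 lists, as were the values of Nrp2, Plxna2 and Plxna4, none of which passed, and the part of other cells in these results was not tested.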

How the data were processed

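RNA was measured in 4 pools of lung ILC2s, 2 WT and 2 KO. The SMART-Seq HT kit amplified full-length cDNA, per the labels' protocols. The submitters' processing notes name HISAT2, Cufflinks and mm10 and give them no role. The counter and annotation are not named there. The authors deposited, per gene, a signal (baseMean, normalized counts averaged over libraries) and the log2 fold change between genotypes with its SE, per the file headers. The authors' statistic is a score, the fold change over its SE, and from it the authors made a p-value and its adjusted form, per the file headers. Another 8 columns hold values per library under headings that match no sample label, and entered no result, though a few were seen on opening the table. Depth per library and replicate agreement were therefore not analysed here.

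The authors' test was used as deposited, two-sided with Benjamini-Hochberg adjustment over 19193 genes with a baseMean of at least 6.71. The sign was turned so that positive means higher in KO. Implied genotype means solve baseMean and fold change for 2 equally weighted genotypes. Intervals are 1.96 SE. Exonic lengths are the union of GENCODE M21 exons, matched for 38388 identifiers. Python 3.11.15 and pandas 2.3.3 were used, and the adjustment was tested on simulated data. The planned count model could not be run. Named genes were the 8 members, partner genes past the threshold or among the 3 most abundant or 3 smallest p of a list, the 2 most abundant or called markers, and the nearest tested neighbours. Most markers and neighbours are given only in sums or counts. Members and lists were chosen with earlier results of these data known.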

Additional observations from a re-analysis of the deposited data

How the results depend on the processing

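The fall of Nrp1 passed in all 5 alternatives, with adjusted p from 7.20e-05 to 0.00994. The threshold of 0.1 is a looser bar on the same adjusted p, so Nrp1 could not fail it. The filters kept each gene's fold change and p-value, and only centring changed the fold change. No other member passed in any of 34 alternative values (lowest adjusted p 0.175, for Plxna2 when centred). Centring on abundant genes turned Plxna3 to 0.13 and Plxnd1 to 0.095; it adds 0.25 to every value. Genes higher in KO numbered 87 as deposited, 21 unfiltered, 22 for baseMean values from 50 up, 39 with protein-coding genes alone, 225 when centred and 266 at an adjusted p under 0.1. Genes lower numbered 19, and 2 unfiltered, 2 when centred and 40 at an adjusted p under 0.1. Of partner genes, 2 were higher, 0 unfiltered and 1 for baseMean values from 50 up, and 0 were lower, 1 at an adjusted p under 0.1. These filters change how many genes are adjusted for. The order of the 8 genes per kilobase was the same with the longest transcript as length, but the ratios between genes were not. By that length Nrp1 stood at 1035 normalized counts per kilobase, Nrp2 at 14.7, Plxna1 at 36.7 and Plxna4 at 3.08. No paired analysis was possible because no column of values per library carries a sample's replicate number. For the same reason, leaving out each pool and a refit with another count model were not run, so it is not known whether 1 pool decides a value.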

Other observations

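Genes beside Nrp1 were looked at because a floxed allele is bred together with its surroundings. Genes beside the other 7 loci, which the labels do not name as floxed, were looked at in the same way. Within 1 Mb of Nrp1 only 3 other genes were tested, and 0 passed. The nearest on each side were Pard3, a polarity gene 746.3 kb away, at -0.42 ± 0.24 (adjusted p-value = 0.443), and Itgb1, 182.3 kb away, at 0.091 ± 0.20 (0.889) in the authors' deposited table. Reads behind Itgb1 and Nrp1 were similar in number (baseMean 3687 and 3771 in the authors' deposited table), as were their SEs, and Itgb1 did not pass the test.

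Next to the other 7 genes, none of the nearest tested genes passed in the authors' deposited table. Within 1 Mb of these 7, 1 of 165 tested genes passed (0.606%, beside 0.552% of all tested genes). It was Rln3 near Gipc1, which encodes relaxin-3, is named after its value was seen and was lower. Cd34, a progenitor and endothelial surface gene 121.9 kb from Plxna2, stood at 0.90 ± 0.40 (adjusted p-value = 0.280), and Podxl, an endothelial sialomucin beside Plxna4, at 0.76 ± 0.36 (0.317) in the authors' deposited table. Pard3b beside Nrp2 was at 0.057 ± 0.42 (adjusted p-value = 0.972) in the authors' deposited table.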
